A study of Rattus norvegicus with 4 samples.

Results

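The effect of a high-fat diet on rat liver was described across both prenatal groups at once, by setting the 2 high-fat samples against the 2 standard-diet samples and pairing them within prenatal group. All 4 samples of the series entered. The comparison covered 8460 of 21596 genes on the array, those detected on all 4 samples at a detection p-value under 0.05. The samples were liver RNA of male Wistar rats aged 4 months, hybridised to Illumina BeadArrays, which read each gene through many copies of a bead-bound probe. The groups were high-fat-fed control offspring (HF control), high-fat-fed offspring that had been undernourished before birth (HF FR30, FR30 being the submitters' name for the prenatal undernutrition), control offspring on standard diet (control) and FR30 offspring on standard diet (FR30). Each group had 1 deposited sample. The labels do not say whether a sample pooled several animals, or give the composition or the duration of the high-fat diet. Each deposited value was a signal in intensity units with a standard deviation (STDEV) behind an unstated number of measurements.

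The liver makes cholesterol and fatty acids when dietary supply is low and insulin is high, and turns cholesterol into bile acids, which leave through the bile and return from the gut. When cholesterol enters from the diet, the sterol-sensing factor SREBP2 is held back and the enzymes of cholesterol synthesis are known to be turned down. Insulin, acting through FoxO factors, lowers glucose-producing enzymes, and growth hormone, acting through STAT5, sets another large group of liver genes, many of which differ between males and females.

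The samples were alike in detection and brightness, and 1 stood apart in its STDEVs. Genes detected numbered 9001 in HF control and 9206 in HF FR30, against 9226 in control and 9095 in FR30, and the median signal lay between 170.2 and 170.8. Hepatocyte markers were detected in all 4 samples (11 of 12 on the array in each), and the 11 tested had a median log2 difference of -0.0282. In the FR30 sample 76 of the 8460 genes had a STDEV over 20% of the signal, against 0 in HF control, 0 in HF FR30 and 1 in control. Fat and muscle markers were among them. Of the 39 gene lists used below, 11 held such a gene, and without these genes the count past 1.5-fold in both pairs changed in 1 list, fatty acid synthesis and desaturation. The lists and their members were chosen with earlier results of these data known. A share of a list set beside that of all genes below is therefore a description and no test. The negative-control background read from the detection p-values was 153.4 to 154 in all samples. It was removed, and the samples were quantile normalized, before log2 values were taken, so that a fold between 2 deposited signals can differ from the fold reported for them.

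For every gene the log2 difference of high-fat minus standard diet was taken in control offspring and in FR30 offspring, and the result is the mean of these 2 differences with their SD (n = 2 pairs). At least 1.5-fold higher in both pairs were 81 genes, 0.957% of those tested, and at least 1.5-fold lower in both pairs were 72 genes, 0.851%. A further 30 genes, 0.355%, passed 1.5-fold in both pairs in opposite directions. In all 81 genes both high-fat samples lay above both standard samples, a pattern that 24.1% of all tested genes had, and in all 72 both lay below, which 22.4% had. Without the genes with a wide STDEV the counts were 79 higher and 71 lower. Intervals of 2 STDEV on each side of the signals did not touch in either pair for 71 of the higher and 65 of the lower genes. The gene just inside the fold was Flcn, with 0.698 in control and 0.586 in FR30 offspring, and the gene just outside it was Ddx31, with 0.598 and 0.583. The mean log2 difference had a median of 1.01 among the 81 higher genes and of -0.94 among the 72 lower ones, and all tested genes had a median of -0.000505.

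The limma test of the diet effect, whose only residual is the disagreement between both pairs, called 0 of 8460 genes at an adjusted p under 0.05 (0%). At an unadjusted p under 0.05 there were 524 higher and 462 lower genes, together 986 or 11.7%. The smallest adjusted p was 0.102, shared by 8 genes. When the non-normalized table was used in place of the normalized one, 3 genes were called higher and 3 lower. An exact permutation over 2 pairs cannot give a two-sided p below 0.5, and the spread within a group is not known with 1 sample each. The words higher and lower below therefore describe the values of these 4 samples and no gene in the normalized table passed the test.

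**Figure D1:**
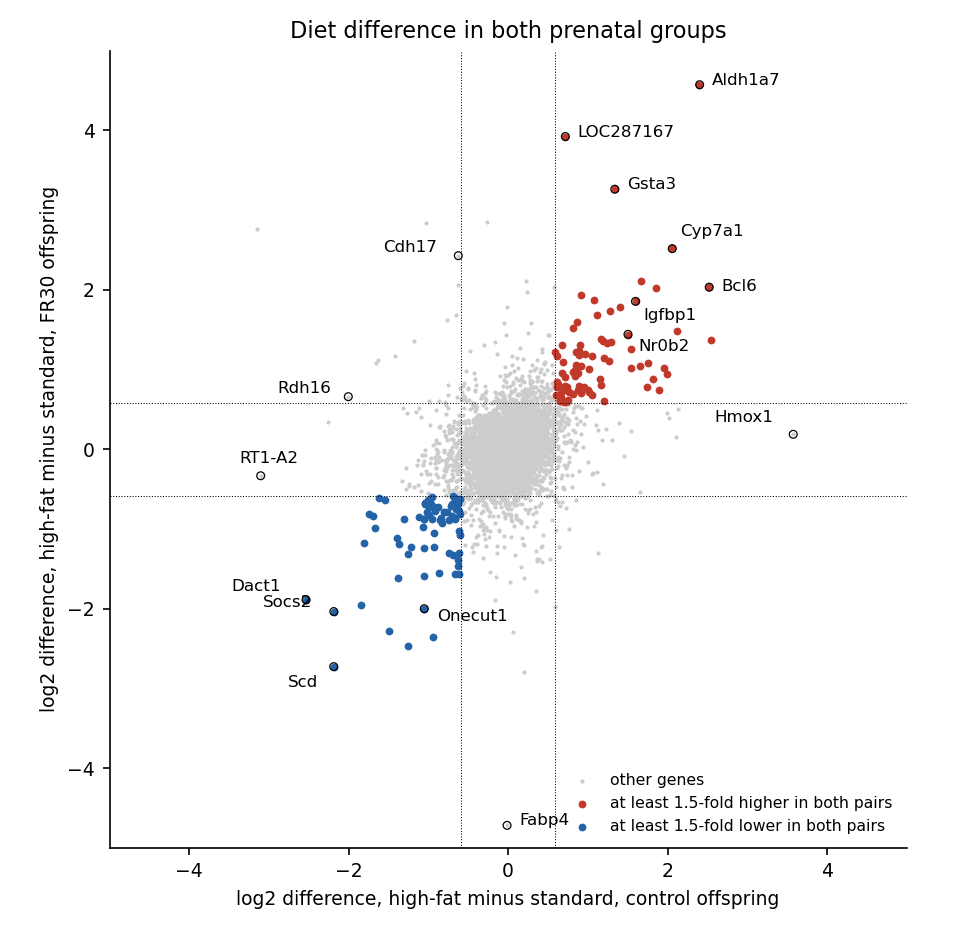
Each point is 1 of 8460 genes, with its log2 difference, high-fat minus standard diet, in control offspring on the horizontal axis and in FR30 offspring on the vertical axis, and dotted lines at 1.5-fold. The 81 genes at the upper right (red) and the 72 at the lower left (blue) passed 1.5-fold in both pairs, while Hmox1, RT1-A2 and Fabp4 lie far from 0 in 1 pair alone.

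Cyp7a1, whose product sets the rate of bile acid synthesis, was among the largest higher values. Its signal was 4428.2 in HF control and 3708.4 in HF FR30, against 1159.2 in control and 766.2 in FR30. Both high-fat samples lay above both standard samples, as for every gene at least 1.5-fold higher in both pairs. The mean log2 difference was 2.29 ± 0.32 (SD, n = 2 pairs), or 4.88-fold (limma adjusted p = 0.102). Nr0b2 encodes SHP, a nuclear receptor that represses Cyp7a1 when bile acids are high, and it was higher as well. It read 869.1 and 778.4 in HF control and HF FR30, against 396.8 and 374.4 in control and FR30, a mean log2 difference of 1.47 ± 0.0438 (limma adjusted p = 0.102). The repressor and its target thus stood on the same side in both pairs.

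Of 22 tested genes of bile acid synthesis and transport, 2 were at least 1.5-fold higher in both pairs (9.09%, against 0.957% of all genes) and 0 lower, and the median log2 difference was 0.31. Cyp7b1, the hydroxylase of the alternative route, read 806.8 and 1272.9 on the high-fat diet in control and FR30 offspring, against 610.5 and 557.5 on the standard diet. The difference was 0.5 in control and 1.43 in FR30 offspring, so its size depended on the pair. Abcg5, a subunit of the sterol exporter into bile, showed the opposite imbalance, 1.18 in control and 0.12 in FR30 offspring. At an unadjusted limma p under 0.05, 8 of the 22 genes were higher and 1 lower, against 6.19% and 5.46% of all genes.

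The promoter of Nr0b2 (GRCr8, chr5:151062910-151063209, plus strand, RefSeq, 250 bases before the start site to 50 after it) is shown because this gene gave nearly the same difference in both pairs. Capitals mark, in order, an E-box (CACGTG), a match to TTCNNNGAA, the palindrome that STAT5 and BCL6 bind, and a GC box (GGGCGG on the other strand):
Nr0b2: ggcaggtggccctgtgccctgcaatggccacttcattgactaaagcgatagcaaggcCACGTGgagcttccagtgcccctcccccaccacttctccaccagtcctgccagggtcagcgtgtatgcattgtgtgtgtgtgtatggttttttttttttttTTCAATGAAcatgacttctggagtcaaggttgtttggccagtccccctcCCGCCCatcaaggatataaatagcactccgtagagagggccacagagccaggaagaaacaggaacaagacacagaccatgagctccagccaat

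Genes of cholesterol synthesis and uptake lay mostly on the lower side. Of 21 tested, 5 were at least 1.5-fold lower in both pairs (23.8%, against 0.851% of all genes) and 0 higher. The mean difference lay below 0 for 18 of the 21, with a median log2 difference of -0.28. At an unadjusted limma p under 0.05 there were 8 lower and 0 higher, against 5.46% and 6.19% of all genes. Tm7sf2, a sterol reductase, read 416.3 and 500.4 in HF control and HF FR30, against 862.4 and 924.2 in control and FR30, a difference of -1.25 ± 0.19 (limma adjusted p = 0.125).

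Sqle, squalene epoxidase, had a mean log2 difference of -0.86 ± 0.25, and Cyp51, lanosterol demethylase, one of -0.81 ± 0.1. The signals of Cyp51 were close to the background, at 197 and 214.4 in HF control and HF FR30, against 238.6 and 280.5 in control and FR30. The high-fat and standard samples did not overlap for any of these 3 genes, as for every gene at least 1.5-fold lower in both pairs.

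**Figure D2:**
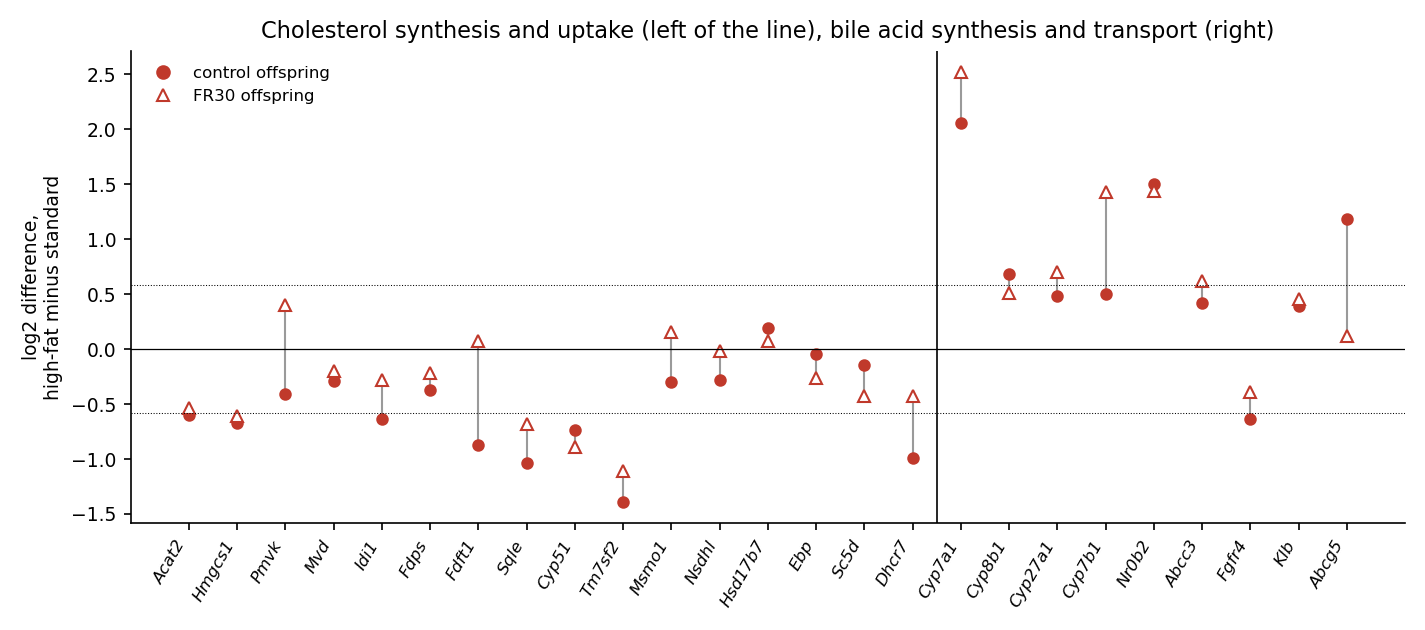
Log2 difference, high-fat minus standard diet, in control offspring (circles) and FR30 offspring (triangles) for selected genes of cholesterol synthesis and uptake and, right of the line, bile acid synthesis and transport; dotted lines mark 1.5-fold. Tm7sf2, Sqle and Cyp51 lie below the lower dotted line in both pairs, and Cyp7a1 and Nr0b2 above the upper one.

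The Tm7sf2 promoter (GRCr8, chr1:212789492-212789791, minus strand, RefSeq) is shown for the sterol genes. Capitals mark its 1 match among the motifs searched, a GC box. The sterol response element TCACNCCAC, on either strand, was not in this window:
Tm7sf2: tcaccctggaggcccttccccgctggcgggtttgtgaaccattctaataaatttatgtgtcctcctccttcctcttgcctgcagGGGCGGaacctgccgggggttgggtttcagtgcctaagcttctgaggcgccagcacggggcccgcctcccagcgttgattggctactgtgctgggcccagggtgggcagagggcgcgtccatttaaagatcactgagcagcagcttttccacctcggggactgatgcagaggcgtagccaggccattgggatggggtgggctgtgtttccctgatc

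Fatty acid desaturation gave the largest lower value of all. Scd (Scd1), the desaturase that makes oleate from stearate, read 6151.4 in HF control and 3718.2 in HF FR30, against 27597.7 in control and 23229.5 in FR30. The STDEV of the FR30 value was 9851.747, so that reading is the least certain of the 4. The mean log2 difference was -2.46 ± 0.38, or 5.49-fold lower (limma adjusted p = 0.102). It was -2.19 in control offspring, whose standard sample had a STDEV of 709.413. By the second deposited table, not normalized, the difference was -2.14 in control and -2.23 in FR30 offspring (limma adjusted p = 0.0362, the lowest of 11 alternatives, which reached 0.28). Adipocytes also express Scd, and the summed signal of the 14 adipocyte markers on the array was 35962 in HF control and 35884 in HF FR30, against 36023 in control and 44796 in FR30. Of these markers 9 and 10 were detected in HF control and HF FR30, against 10 and 12 in control and FR30. The part of fat RNA in the FR30 reading was not tested.

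Beside Scd, 1 further gene of 12 tested in fatty acid synthesis and desaturation passed 1.5-fold in both pairs, and it was lower (together 16.7%, against 0.851% of all genes). Without the 5 genes of the list with a wide STDEV, Scd among them, 1 of 7 was lower and the median was -0.19. Elovl5, which elongates polyunsaturated fatty acids, read 775.7 and 855.8 in HF control and HF FR30, against 1282.3 and 1457.6 in control and FR30, a mean log2 difference of -0.86 ± 0.0318 (limma adjusted p = 0.157). Acly, which supplies acetyl-CoA, had -0.44 ± 0.032, and malic enzyme Me1, a source of NADPH, had 0.46 ± 0.14. Both are among the genes with a wide STDEV in FR30, 499.243 on a signal of 1539.2 for Acly and 242.865 on 548.1 for Me1. In the non-normalized table the mean was -0.26 for Acly, with -0.0949 in FR30 offspring, and 0.77 for Me1, with 0.97 in FR30 offspring. The median over all 12 was -0.23. By contrast the 20 genes of mitochondrial fatty acid oxidation had a median of -0.0616, with 0 past 1.5-fold in both pairs, and the rate-limiting transferase Cpt1a read 8165.5 and 7724.3 in HF control and HF FR30, against 6736.1 and 8409.2 in control and FR30. The Cpt1a groups overlapped, and the mean was 0.0762 ± 0.3.

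The Scd promoter (GRCr8, chr1:253231682-253231981, minus strand, RefSeq) is shown as that of the gene with the largest lower value. Its capitals mark the only match to a searched motif, TGACNNNGC on the other strand, the core of the antioxidant response element, which 15.0% of all 5834 promoters held:
Scd: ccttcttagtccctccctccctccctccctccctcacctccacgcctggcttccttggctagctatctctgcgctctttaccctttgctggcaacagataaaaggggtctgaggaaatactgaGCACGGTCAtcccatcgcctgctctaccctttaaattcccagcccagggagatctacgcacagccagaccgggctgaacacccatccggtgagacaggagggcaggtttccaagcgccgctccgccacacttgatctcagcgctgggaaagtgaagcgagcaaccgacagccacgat

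Genes of glucose production lay mostly on the lower side, with 9 of 12 means below 0. Of 12 tested genes of gluconeogenesis, 1 was at least 1.5-fold lower in both pairs (8.33%, against 0.851% of all genes) and 0 higher, and the median log2 difference was -0.36. At an unadjusted limma p under 0.05, 6 of the 12 were lower, against 5.46% of all genes, and 0 higher. Sds, serine dehydratase, which feeds amino acid carbon into glucose production, read 1586.8 and 1731.9 in HF control and HF FR30, against 4781.9 and 2972.5 in control and FR30, a mean of -1.27 ± 0.61. Pc, pyruvate carboxylase, had -0.63 ± 0.0856. Pck1, the rate-limiting phosphoenolpyruvate carboxykinase, read 38033.2 and 29946.6 against 48137.3 and 45605.3 in the same order, a difference of -0.43 ± 0.15. G6pc1 (G6pc), the last enzyme of glucose release, had -0.13 in control and -0.83 in FR30 offspring.

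Among genes of glycolysis and glycogen, Ldha, a lactate dehydrogenase subunit, read 12424.3 and 10881 in HF control and HF FR30, against 18784.9 and 18092.8 in control and FR30. Its mean log2 difference was -0.66 ± 0.043 (limma adjusted p = 0.212), and Pdk4, the kinase that switches off pyruvate dehydrogenase, had -0.59 ± 0.0578. The median over the 18 tested genes of that list was -0.0752.

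Igfbp1, the insulin-repressed binding protein of insulin-like growth factors, was higher. It read 2081.1 and 1549.6 in HF control and HF FR30, against 779.7 and 525.8 in control and FR30, and the mean log2 difference was 1.73 ± 0.18 (limma adjusted p = 0.102). Its promoter (GRCr8, chr14:86261027-86261326, plus strand, RefSeq) is shown because insulin is known to act on it through a FoxO site. Capitals mark CAAAACA, 1 arm of the insulin response element, which begins at position -121 from the start site. That motif was in 4.54% of all promoters:
Igfbp1: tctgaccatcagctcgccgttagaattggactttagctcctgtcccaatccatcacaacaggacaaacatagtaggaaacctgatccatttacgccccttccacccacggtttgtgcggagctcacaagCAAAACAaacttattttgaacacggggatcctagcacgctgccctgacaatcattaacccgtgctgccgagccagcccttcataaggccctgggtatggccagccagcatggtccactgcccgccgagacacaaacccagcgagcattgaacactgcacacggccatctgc

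Genes of growth hormone signalling held some of the largest values in both directions. Of 15 tested genes of growth hormone and STAT5, 2 were at least 1.5-fold higher in both pairs (Bcl6 and Igfbp1) and 2 lower (Socs2 and Onecut1). Each is 13.3% of the list, against 0.957% higher and 0.851% lower among all genes, and the median was -0.22. Socs2, a feedback inhibitor of the growth hormone receptor and itself a STAT5 target, read 252.6 and 366.3 in HF control and HF FR30, against 661.1 and 1079.1 in control and FR30. The mean log2 difference was -2.11 ± 0.11, and it had the smallest p of all genes (limma adjusted p = 0.102). Bcl6, a repressor that competes with STAT5 for binding sites, read 1696.3 and 1134.1 in HF control and HF FR30, against 410.8 and 382.3 in control and FR30, a mean of 2.28 ± 0.35. Onecut1 (HNF6), a liver transcription factor, read 1801.1 and 1605 against 3561.8 and 6012.6 in the same order, with -1.53 ± 0.67. For all 4 genes the high-fat and standard samples lay apart, as they did for every gene past 1.5-fold in the same direction in both pairs.

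Sex-biased liver genes, many of which depend on growth hormone, were set beside these. Of 13 tested genes known as female-biased in rat or mouse liver, 3 were at least 1.5-fold higher in both pairs (23.1%, against 0.957% of all genes) and 0 lower, with a median of 0.57. Cyp7a1 is 1 of the 3 and is counted in the bile acid list too. Cd36, a fatty acid transporter, had 2.02 in control and 0.4 in FR30 offspring, and the prolactin receptor Prlr had 2.11 and 0.15 in the same order. The FR30 signal of Cd36 had a STDEV of 897.939 on 2392.1, and in the non-normalized table its difference was 2.03 in control and 0.77 in FR30 offspring. Cyp2c12, the steroid hydroxylase that marks female rat liver, had -0.29 in control and 0.59 in FR30 offspring. Cyp3a9 and Cyp2c7 had means of -0.29 ± 0.42 and -0.0814 ± 0.16, these 3 being named after their values were seen. The 16 male-biased genes had a median of -0.0835 and 10 means below 0. Of the 16, 0 were higher in both pairs and 1 was lower (6.25%, against 0.851% of all genes). That gene, Hao2, an oxidase of hydroxy acids, read 6154.4 and 6403.8 in HF control and HF FR30, against 10675 and 11880.5 in control and FR30, a difference of -0.88 ± 0.061. The male rat liver markers differed in sign. Cyp2a2 and Cyp3a2 had 0.29 ± 0.0265 and 0.3 ± 0.18, while Cyp2c11, Cyp2d1 and Mup5, named after their values were seen, had -0.28 ± 0.14, -0.11 ± 0.25 and -0.1 ± 0.0382.

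**Figure D3:**
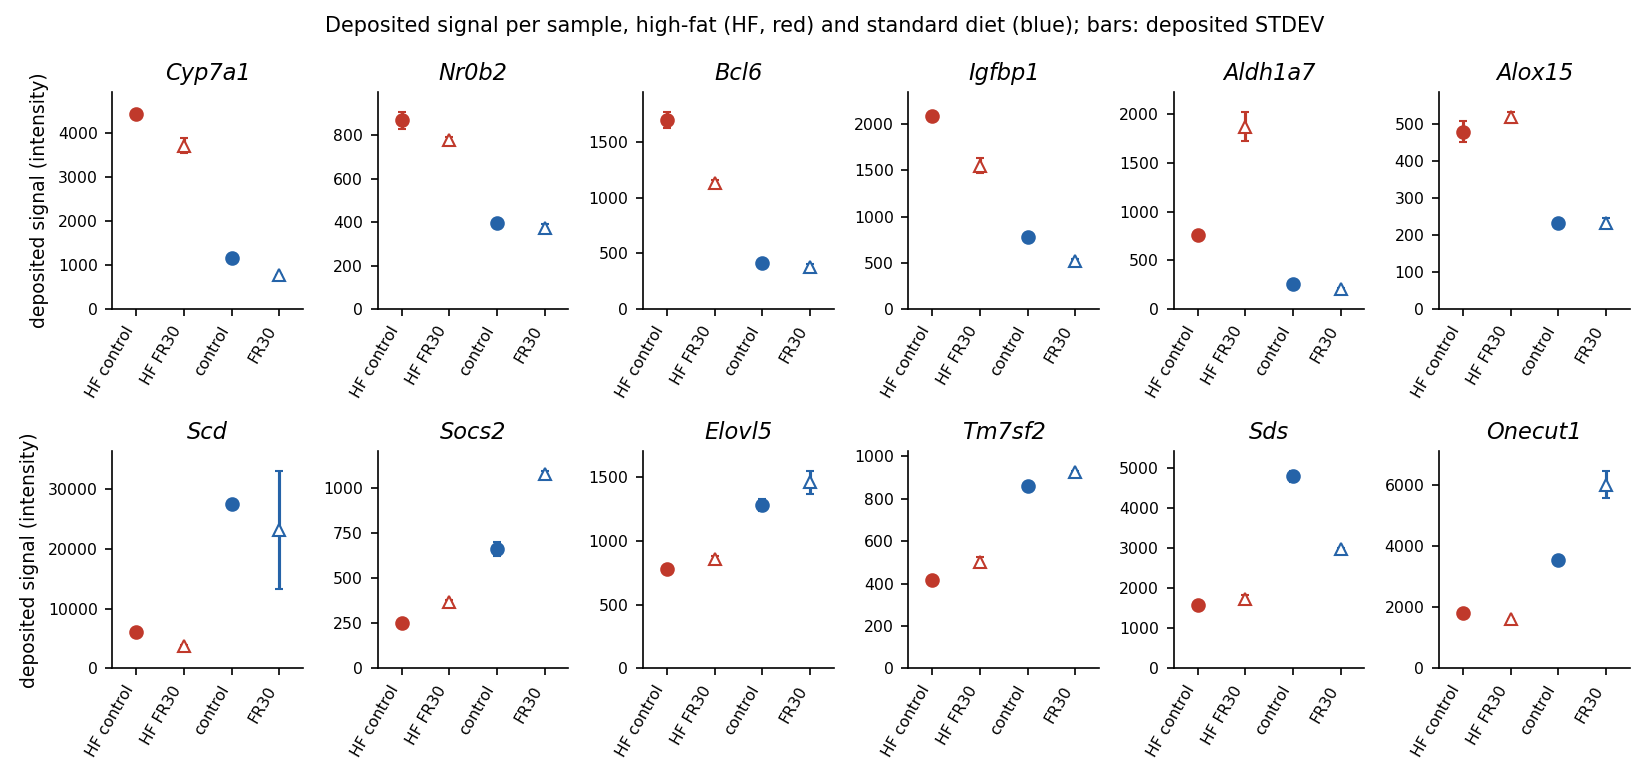
Deposited signal in intensity units for 12 genes, with high-fat samples (red) left of standard-diet samples (blue), circles for control and triangles for FR30 offspring, and bars for the deposited STDEV. In each panel both red points lie on 1 side of both blue points, as for every gene past 1.5-fold in the same direction in both pairs. The long bar on Scd in FR30 is its STDEV of 9851.747.

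Detoxifying genes held the largest higher value. Aldh1a7, an aldehyde dehydrogenase, read 758.4 in HF control and 1872.1 in HF FR30, against 254.8 in control and 210.6 in FR30. The difference was 2.4 in control and 4.57 in FR30 offspring, a mean of 3.49 ± 1.54 (limma adjusted p = 0.19). Gsta3 (Yc2 in the file), a glutathione transferase subunit, was similar in shape, at 327.8 and 612.8 in HF control and HF FR30, against 213.1 and 185.2 in control and FR30. Its mean was 2.3 ± 1.36. In both genes the FR30 pair had the larger difference, with the highest signal in HF FR30.

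Of 33 tested NRF2 targets and glutathione genes, 4 were at least 1.5-fold higher in both pairs (12.1%, against 0.957% of all genes) and 0 lower, with a median of 0.19. The list holds known targets of NRF2, the factor that answers oxidative and chemical stress. Hmox1, heme oxygenase, was high in 1 sample only, at 5520.3 in HF control and 760.8 in HF FR30, against 588.2 in control and 684.8 in FR30. Mt1, metallothionein, read 53443 and 35760.6 against 11586.3 and 23957.1 in the same order. Both high-fat samples were above both standard samples for Mt1, and its difference was 2.13 in control and 0.5 in FR30 offspring.

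Genes of the pericentral zone, the hepatocytes around the central vein, had the highest median of the lists apart from the erythroid one. Of 15 tested, 6 were at least 1.5-fold higher in both pairs (40.0%, against 0.957% of all genes) and 0 lower, and the median was 0.69, with 0.48 in control and 0.78 in FR30 offspring. At an unadjusted limma p under 0.05, 10 of the 15 were higher and 0 lower, against 6.19% and 5.46% of all genes. Ahr, the receptor for dioxin-like compounds, read 1471.6 and 1505.9 in HF control and HF FR30, against 771.8 and 507.9 in control and FR30, a mean of 1.47 ± 0.57. Slc1a2, a glutamate transporter of that zone, had 1.42 ± 0.72, and Tbx3, a transcription factor downstream of Wnt signals, had 1.4 ± 0.2 (limma adjusted p = 0.103). The mean lay above 0 for 12 of the 15 and below 0 for 3. Those 3 were the cytochromes Cyp2e1 (-0.0332 ± 0.023) and Cyp1a2 (-0.0183, with -0.24 in control and 0.21 in FR30 offspring), both much used as markers of the zone, and Gulo (-0.19, with -0.6 and 0.23 in the same order). They are named after their values were seen.

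Several of these genes stand in other lists as well, Cyp7a1 among them. Of the 7 pericentral genes in no other list, 2 were higher in both pairs, against 0.957% of all genes, and the median was 0.49. Of 16 tested periportal genes, 1 was lower in both pairs, Sds (6.25%, against 0.851% of all genes), and 0 higher, with a median of -0.0868. In RNA from whole liver, more cells of a zone and more RNA per cell cannot be told apart.

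**Figure D4:**
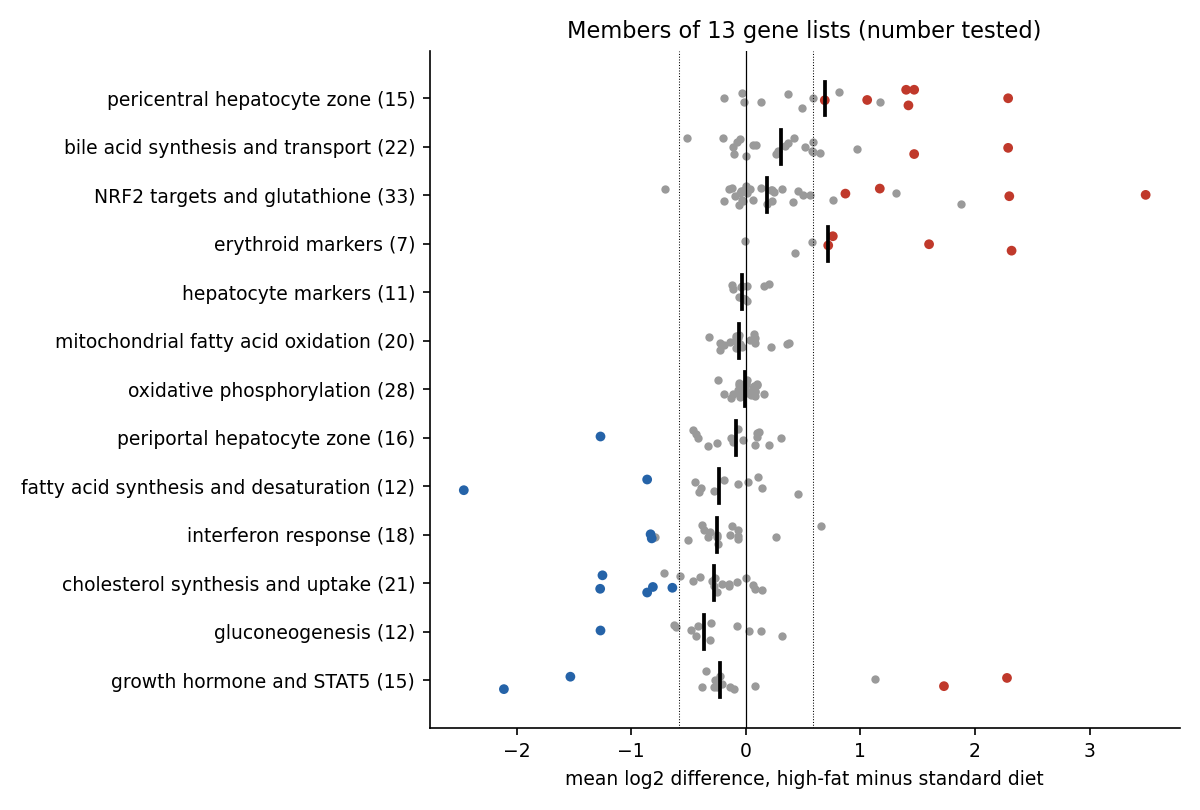
Mean log2 difference, high-fat minus standard diet, of the tested members of 13 gene lists, with the number tested in brackets, a black bar at the median and dotted lines at 1.5-fold. Coloured points passed 1.5-fold in both pairs; the pericentral list has 6 of 15 such points on the higher side and the cholesterol list 5 of 21 on the lower side.

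Red cell transcripts lay mostly on the higher side. Of 7 tested erythroid markers, 4 were at least 1.5-fold higher in both pairs (57.1%, against 0.957% of all genes) and 0 lower, and the summed signal of the 11 markers on the array was 69717 in HF control and 67055 in HF FR30, against 49139 in control and 47774 in FR30. In each sample 7 of the 11 were detected. Hbb, beta globin, read 17564.5 and 18345 against 10567.5 and 10911.5 in the same order, a mean of 0.76 ± 0.0229. Ahsp (Eraf in the file), which stabilises free alpha globin, had 1.6 ± 0.26 (limma adjusted p = 0.103), and Alas2, the heme synthesis enzyme of red cells, had 0.72 ± 0.14. The signals of Alas2 were close to the background, at 229.2 and 242.4 in HF control and HF FR30, against 196.5 and 196.8 in control and FR30. LOC287167, an alpha globin chain, was uneven, with 0.72 in control and 3.92 in FR30 offspring. Its signal in FR30 was 184.4, close to the background. The part of blood left in the tissue was not tested.

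The other large values came from genes of mixed roles. On the higher side Popdc2, a Popeye domain membrane protein, had a mean log2 difference of 1.96 ± 0.83. Alox15, a lipoxygenase of polyunsaturated fatty acids, read 478.5 and 516.7 in HF control and HF FR30, against 232 and 231.5 in control and FR30, with 1.93 ± 0.12 (limma adjusted p = 0.102). The standard-diet signals of Alox15 were close to the background. Hdc, which makes histamine, had 1.89 ± 0.31. Serpina7, the thyroxine-binding globulin, read 2192.4 and 1783.2 against 609.8 and 729.4 in the same order, with 1.8 ± 0.45. Sdr42e1, a short-chain dehydrogenase, had 1.51 ± 0.32.

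On the lower side Dact1, an intracellular inhibitor of Wnt signalling, read 195.5 and 212.1 in HF control and HF FR30, against 476.2 and 411.9 in control and FR30, a mean of -2.21 ± 0.46. The high-fat signals of Dact1 were close to the background. LOC316130, annotated in the file as similar to a mannose-6-phosphate receptor binding protein, had -1.9 ± 0.0703 (limma adjusted p = 0.102). Cavin3 (Prkcdbp in the file), a component of caveolae, had -1.86 ± 0.86 and Coch, an extracellular matrix protein, -1.5 ± 0.17. The high-fat signals of Coch were close to the background, at 188.9 in HF control and 187.8 in HF FR30. Camk2n1, an inhibitor of a calmodulin-dependent kinase, had -1.33 ± 0.48 and Phlda3, an inhibitor of AKT, -1.32 ± 0.38. Xylb, the xylulose kinase, had -1.28 ± 0.0432. RGD1563706, LOC360228 and the unnamed probe ILMN_1371869 had -1.89 ± 0.55, -1.49 ± 0.46 and -1.64 ± 0.99.

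Immune lists differed from each other. Of 18 tested interferon response genes, 2 were lower in both pairs (11.1%, against 0.851% of all genes) and 0 higher. The mean was below 0 for 16, and the median was -0.25, with -0.0932 in control and -0.41 in FR30 offspring. Of 17 chemokine and cytokine genes 1 was higher (5.88%, against 0.957% of all genes) and 0 lower, with a median of 0.0192. The higher gene was Cxcl13 (1.47 ± 0.74, named after its values were seen). The 12 macrophage markers had a median of 0.0257 and 0 past the fold. Oasl and Oas1a, antiviral synthetase family members, had -0.83 ± 0.19 and -0.82 ± 0.3, while Ifit2, another interferon-induced gene, had 0.66 ± 0.47. The signals of Oas1a were close to the background, at 198.5 and 199.3 in HF control and HF FR30, against 231.4 and 263.7 in control and FR30. Of 17 antigen presentation genes none passed 1.5-fold in both pairs, and 4 were lower at an unadjusted limma p under 0.05 with 0 higher, against 5.46% and 6.19% of all genes. Of 21 immediate early and growth arrest genes, Egr1 was higher in both pairs (1.31 ± 0.81) and Sgk1, a serum and glucocorticoid regulated kinase, was lower (-0.83 ± 0.14). Each is 4.76% of the list, against 0.957% higher and 0.851% lower among all genes. Of 12 clock genes, 1 was lower in both pairs (8.33%, against 0.851% of all genes) and 0 higher. It was Bhlhe40, a repressor of the clock, with -1.12 ± 0.71. The labels do not give the time of day at which tissue was taken.

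Among the 39 gene lists, 17 had 0 members past 1.5-fold in both pairs, 223 tested members in all. Oxidative phosphorylation was 1 of these: its 28 tested genes had a median of -0.00391, and its largest mean difference was -0.24, of Ndufs1.

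Some large means rested on 1 pair. Beside Hmox1, the higher ones were Birc6, an inhibitor of apoptosis, with 1.29 ± 2.2, and Nr1i3, the constitutive androstane receptor, with 1.17 ± 1.33. Birc6 read 864.8 in HF control and 1012.5 in HF FR30, against 1019.7 in control and 259.6 in FR30, and so was low in FR30 alone. Nr1i3 was high in HF FR30 alone, at 2439.9. The lower ones were Fabp4, the adipocyte fatty acid binding protein, with -2.37 ± 3.33, the class I histocompatibility gene RT1-A2 with -1.72 ± 1.96, and Ldhb with -1.3 ± 2.11. Fabp4 and Ldhb were high in FR30 alone, with STDEVs of 4927.651 and 829.445 on signals of 3020.1 and 679.6. In the non-normalized table the FR30 signals were 168.2 for Fabp4, the lowest of the 4 samples, and 188.3 for Ldhb, whose mean difference there was 0.23, in the other direction. RT1-A2 was low in HF control alone, at 627.7.

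Genes detected on 1 diet only were left out above and were given bounds. Of 21596 genes on the array, 70 were detected on both high-fat samples and neither standard sample, and 9 of the 70 were at least 1.5-fold higher by the bound. Detected on both standard samples and neither high-fat sample were 89, of which 6 were at least 1.5-fold lower by the bound. The others did not reach 1.5-fold by the bound. Acsm2, a medium-chain acyl-CoA synthetase, read 695.3 and 453.2 in HF control and HF FR30, against 180.3 and 176.1 in control and FR30, where it was not detected, and was at least 8.95-fold higher. LOC499980 was at least 2.24-fold higher, and Slc12a3, Add2 and Ptprn at least 1.84-fold, 1.8-fold and 1.75-fold. On the other side cyclin F (Ccnf) read 165.7 and 159.8 in HF control and HF FR30, against 264.5 and 306.8 in control and FR30, and was at least 3.08-fold lower. Slc25a30, a mitochondrial carrier whose detection p-values were averaged over probes, was at least 3.67-fold lower, and Chac1, Stmn3 and Oas1i at least 1.76-fold, 1.53-fold and 1.53-fold.

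The same 4 samples also hold the prenatal contrast and the difference between both diet differences, which share every sample with the diet contrast. Past 1.5-fold were 326 genes for the mean diet difference (3.85%), with 168 higher (1.99%) and 158 lower (1.87%), against 112 for the mean prenatal difference (1.32%), 55 higher in FR30 (0.65%) and 57 lower (0.674%). For the difference between both diet differences, scaled to the same precision, there were 119 (1.41%). Of the summed squares of the 3 contrasts, 50.6% lay in the diet contrast, 24.0% in the prenatal contrast and 25.4% in the difference between both diet differences. That last contrast is also the only residual of the limma fit. With 1 sample a group, an interaction of diet and prenatal nutrition cannot be told apart from spread between samples. The limma fit called 0 genes for the prenatal effect, with 371 at an unadjusted p under 0.05 (4.39%), against 986 for diet.

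**Figure D5:**
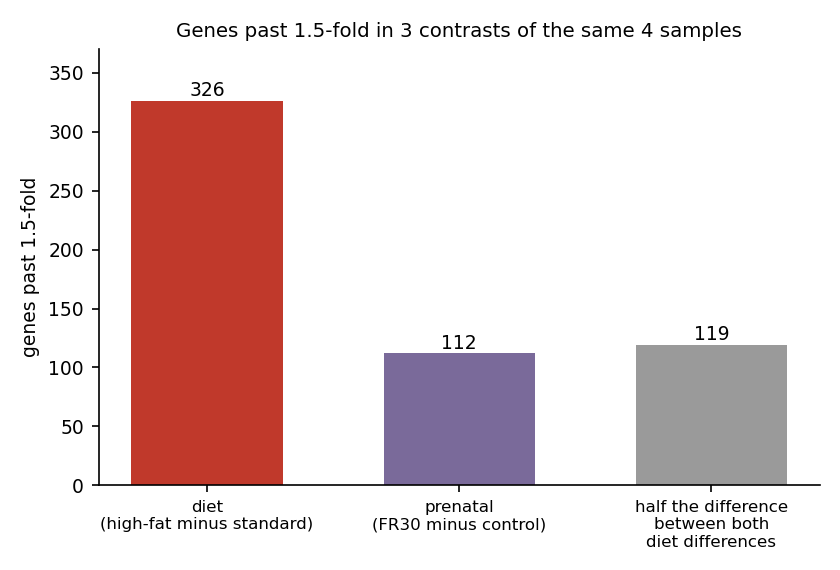
Number of genes past 1.5-fold in 3 contrasts of the same 4 samples with equal precision. The diet contrast has 326 genes, the prenatal contrast 112 and the difference between both diet differences, scaled to match, 119.

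Promoters were compared as a description. A RefSeq promoter was held for 59 of the 81 higher genes, 43 of the 72 lower genes and 5834 of all 8460. A GC box was in 39.0% of the promoters of higher genes and 62.8% of those of lower genes, against 61.3% of all. TTCNNNGAA was in 11.9% of the higher, 4.65% of the lower and 7.42% of all promoters. TGACNNNGC was in 15.3%, 16.3% and 15.0%, and CACGTG in 11.9%, 11.6% and 9.63%, in the same order. TCACNCCAC was in 0% of the higher, 2.33% of the lower and 0.977% of all promoters, and CAAAACA in 6.78%, 4.65% and 4.54%. Each motif was searched on both strands.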

How the data were processed

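Liver RNA from 4 groups, 1 sample each, was measured on Illumina BeadArrays. Per the file headers, the authors deposited a table of normalized signal intensity per gene, with a STDEV (other) and a detection p-value beside each signal. The submitters' processing notes name GenomeStudio, without its version or the normalization. The authors also deposited non-normalized intensity per probe; its identifiers did not match the values (r of at most 0.0658), so its rows were put to genes by row order, as an alternative.

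Background was corrected with limma 3.58.1 (R 4.3.3) by the normal-exponential model from detection p-values, with offset 16, then quantile normalization and log2. Names were updated through RefSeq (GRCr8), and the brightest of several rows was kept. limma's lmFit and eBayes fitted diet with the prenatal group as a block, because the same prenatal group pairs the samples by the labels; p-values were Benjamini-Hochberg adjusted over 8460 genes. With 1 deposited sample a group, p-values measure only the disagreement between pairs. For genes detected on 1 diet only, the bound sets the mean of the bright samples against the dim samples' mean of the higher of the lowest detected value and their own value.

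Named are the 12 largest mean differences each way among genes past 1.5-fold in both pairs, the 5 smallest p each way, up to 4 members per described list, 3 discordant genes each way, the 5 largest bounds each way, and Scd, Cpt1a, Pck1, G6pc1 and Cyp7a1. Some genes that meet this rule are not reported here. Members and lists were chosen with earlier results of these data known. Tables were handled in Python 3.11.15.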

Additional observations from a re-analysis of the deposited data

Results flagged for a closer look

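For 2 named genes the diet differences went opposite ways by at least 1.5-fold each, and this was not tested, because each difference has 1 sample a side. Cdh17, an intestinal and bile duct cadherin, read 1449.3 in HF control and 1177.9 in HF FR30, against 2161.6 in control and 332.5 in FR30. Its log2 diet difference in FR30 offspring minus that in control offspring was 3.05. Rdh16, a retinol dehydrogenase, read 500.7 and 1053.7 in HF control and HF FR30, against 1588.1 and 719.3 in control and FR30, with a value of 2.66. They are among 30 such genes of 8460.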

How the results depend on the processing

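In all, 16 alternatives were run, 12 of them with a test. Without the prenatal group as a replicate block limma also called 0 genes. The 81 higher and 72 lower genes past the fold in both pairs do not depend on the block, so these counts could not change. In the non-normalized table, 3 genes were called higher and 3 lower (Cyp7a1, Bcl6, Alox15, Scd, Socs2 and LOC316130, adjusted p = 0.0362 each, against 0.268 to 0.28 at the highest over the alternatives). Of 138 genes past the fold in both pairs that this table holds, 134 passed there too. With genes detected on at least 2 samples 1 gene was called higher, Acot1, an acyl-CoA thioesterase named after its values were seen (log2 difference 3.21, adjusted p = 0.0375). Acot1 read 543.1 and 608.5 in HF control and HF FR30, against 177.6 and 185.7 in control and FR30. The standard-diet signals were close to the background, with a detection p-value of 0.06303 in control. This filter can admit a gene through the diet on which it is high, so no conclusion is drawn from that call. Leaving the background in the signals compresses folds, and 47 higher and 36 lower genes of 8460 then passed 1.5-fold in both pairs. At 2-fold in both pairs there were 27 and 15 of 8460. The control pair alone had 209 higher and 274 lower genes, and the FR30 pair alone 308 and 265.

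The medians of 8 lists were recomputed under the alternatives and kept their sign in each. Alternatives that alter only the limma fit (no block, intensity trend, robust eBayes) cannot move these medians. For erythroid markers the median was 0.52 without background correction, 0.56 with offset 50 and 0.58 at detection p under 0.01. For bile acid genes it was 0.23 without background correction, 0.25 in the control pair and 0.18 in the FR30 pair. For NRF2 targets it was 0.11 without background correction and 0.1 in the control pair. For mitochondrial fatty acid oxidation it was -0.0425 without background correction, -0.0481 with median scaling, -0.0456 in the non-normalized table and -0.0653 in the FR30 pair. For gluconeogenesis it was -0.41 in the non-normalized table. In the control pair alone it was 0.48 for pericentral genes, -0.41 for cholesterol genes and -0.48 for fatty acid synthesis.

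Of 159 named genes, 5 changed sign in the non-normalized table: Ldhb to 0.23, Lipe to 0.32, Lpl to 0.54, Aoc3 to 0.0347 and Cldn5 to 0.12. The cause was not tested. The number of samples limits the precision. Because the background of 153.4 to 154 was removed, a small difference between signals near it gives a larger reported fold. Alas2, for example, read 229.2 in HF control and 196.5 in control, and its reported fold in that pair was 1.53.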

Other observations

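Amino acid breakdown showed 2 genes higher in both pairs (6.45%, against 0.957% of all genes) and 1 lower (3.23%, against 0.851%) of 31 tested. Hdc read 748 and 999.8 in HF control and HF FR30, against 328.7 and 339.8 in control and FR30. Oat, ornithine aminotransferase, read 13500.2 and 11602.1 in HF control and HF FR30, against 8789.9 and 6804 in control and FR30, a mean of 0.69 ± 0.12. Sds was the lower gene, and the median of the list was -0.0119.

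Among cell cycle genes, 1 of 16 was lower in both pairs (6.25%, against 0.851% of all genes). Ccnd1, cyclin D1, read 1641 and 1138.8 in HF control and HF FR30, against 2865.2 and 3080.6 in control and FR30, with -1.21 ± 0.48. Among chemokines, Cxcl13, which draws B cells, read 391.1 and 470.1 against 200.3 and 309.9 in the same order, with 1.47 ± 0.74. Of 29 PPAR alpha targets, Vnn1 was higher in both pairs (0.9 ± 0.45) and Cyp4a8, a fatty acid hydroxylase, lower (-1.23 ± 0.00808). Each is 3.45% of the list, against 0.957% higher and 0.851% lower among all genes.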
